A study of Homo sapiens with 10 samples.

Results

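The 10 urothelial and epithelial regulators described here were followed in a cisplatin-sensitive bladder cancer (BC) line and its resistant derivative. The genes were taken from a list of names and found by Ensembl identifier. They are the ETS factors ELF3 and EHF, the zinc-finger factors GATA3, KLF5 and OVOL1, the nuclear receptor PPARG, the forkhead factor FOXA1, the grainyhead factor GRHL2, the basal-cell factor TP63 and the RNA-binding protein ESRP1. All 10 had a row among the 61533 genes counted. RNA-seq had been run on 5 libraries of T24, a cell line from a human bladder carcinoma, and 5 of T24R2, which was derived from T24 by repeated exposure to cisplatin. Both lines are labelled day 3 and as grown in RPMI with fetal bovine serum. The methods add that T24R2 was kept in cisplatin, which its labels do not list, so that drug exposure at harvest and the history of the line cannot be told apart. T24R2 is a single derived line, and no source says whether the 5 libraries of a line came from separate cultures, so p-values measure only the spread between these libraries, which may be technical.

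Urothelial cells pass from basal cells, which depend on TP63, to luminal cells in which PPARG, GATA3, FOXA1, ELF3 and KLF5 act together on uroplakin, keratin and lipid genes. GATA3 and FOXA1 are opening factors for luminal chromatin, and bladder tumours that lack the luminal programme often have a basal or a mesenchymal-like transcriptome. GRHL2, OVOL1 and ESRP1 serve epithelia in general: GRHL2 activates junction genes, OVOL1 represses drivers of the epithelial-mesenchymal transition (EMT), and ESRP1 directs epithelial splicing.

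In T24R2, 3 of these genes, ELF3, GATA3 and EHF, were found at a few counts per library, and T24 expressed them at 72.1, 22.1 and 6.80 counts per 1000000 counts (CPM). Another 3, FOXA1, KLF5 and PPARG, were expressed in both lines and fell in T24R2 to 20.8%, 24.2% and 34.5% of their T24 levels. The other 4, TP63, ESRP1, OVOL1 and GRHL2, were at or near 0 in both lines. In bulk libraries, fewer cells that express a gene and less RNA per cell cannot be told apart. Of the 10 genes, 6 passed the filter on low counts, 6 were downregulated in T24R2 and 0 upregulated, where a gene was called at an adjusted p under 0.05 and an absolute log2FC over 0.5 (edgeR's quasi-likelihood test, Benjamini-Hochberg adjustment over 16181 genes). ELF3, EHF and GATA3 passed that filter only through T24, so they had to differ, and the count of 6 is no measure of the list. Across all tested genes, 51.4% were called, 26.5% lower and 24.9% higher in T24R2, and the median log2FC was 0.01. In all 6 genes each T24R2 library was below each T24 library, as it was for 31.3% of tested genes, and the reverse order was seen for 29.9%. The exact two-sided permutation p of each was 0.00794, the smallest that 5 against 5 can give. With library size alone as the scaling, the median of all genes moved to 0.18, and the calls shifted from 4027 higher and 4282 lower to 5206 higher and 3431 lower, but the same 6 genes were called lower.

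**Figure D1:**
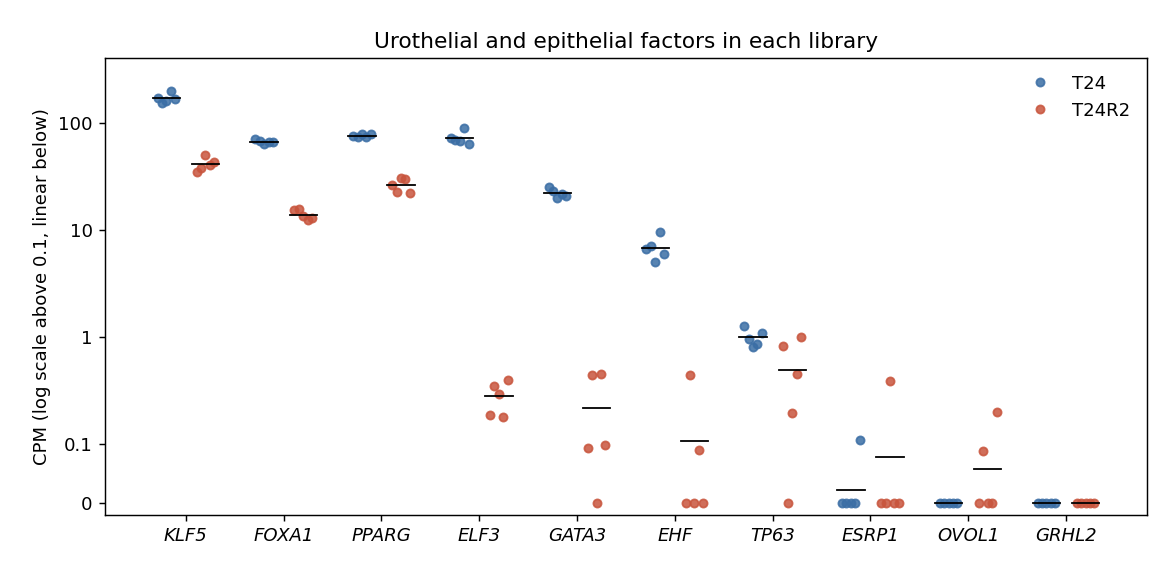
CPM of the 10 genes (y axis, log scale above 0.1 and linear below) in each of 5 T24 (blue) and 5 T24R2 (red) libraries, with short lines at the means. KLF5, FOXA1 and PPARG stayed above 10 CPM in T24R2, while ELF3, GATA3 and EHF lay under 0.5 CPM in every T24R2 library.

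Sequence before the start sites is shown for 4 genes, the 3 found at a few counts in T24R2 and FOXA1, which shares its start region with another downregulated gene. Each is the 250 bases before a RefSeq start on GRCh38.p14, 5′ to 3′ on the gene's strand. Capitals mark matches to any of 6 short motifs, each searched on both strands. CAGGTG is the E-box of the ZEB and SNAI repressors, and the GATA family reads AGATAA. The forkhead site of FOXA proteins is TGTTTAC. Grainyhead factors bind AACCGGTT, Krüppel-like factors GGGTGTGG, and the ETS family CCGGAAGT. For EHF, the start with matches was chosen of 2 listed, after they were seen, and for GATA3 the first of 6.
ELF3, chr1:202010337-202010586, plus strand: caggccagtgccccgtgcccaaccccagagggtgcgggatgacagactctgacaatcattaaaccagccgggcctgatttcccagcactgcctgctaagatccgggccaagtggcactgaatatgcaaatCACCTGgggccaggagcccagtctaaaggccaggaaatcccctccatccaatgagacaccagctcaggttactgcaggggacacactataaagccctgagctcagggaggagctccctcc
EHF, chr11:34632316-34632565, plus strand: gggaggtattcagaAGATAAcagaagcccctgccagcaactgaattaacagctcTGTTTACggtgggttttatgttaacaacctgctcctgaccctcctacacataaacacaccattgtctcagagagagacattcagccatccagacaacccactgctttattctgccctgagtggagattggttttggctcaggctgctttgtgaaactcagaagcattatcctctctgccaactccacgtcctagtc
GATA3, chr10:8045083-8045332, plus strand: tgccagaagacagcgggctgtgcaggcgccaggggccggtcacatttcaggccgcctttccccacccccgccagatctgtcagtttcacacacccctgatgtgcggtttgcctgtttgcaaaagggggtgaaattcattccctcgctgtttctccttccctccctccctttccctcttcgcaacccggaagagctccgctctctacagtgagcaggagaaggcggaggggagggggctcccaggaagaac
FOXA1, chr14:37595250-37595499, minus strand: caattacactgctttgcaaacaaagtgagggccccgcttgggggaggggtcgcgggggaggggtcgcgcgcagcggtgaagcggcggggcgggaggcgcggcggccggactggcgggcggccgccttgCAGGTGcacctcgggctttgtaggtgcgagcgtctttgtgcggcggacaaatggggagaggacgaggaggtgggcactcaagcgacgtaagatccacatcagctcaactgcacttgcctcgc

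The E-box lay in the ELF3 and FOXA1 sequences, its first base 120 and 122 bases before the start site, and in 17.5% of all 35116 promoters of that length. The EHF sequence held an AGATAA, found in 9.17% of promoters, and a TGTTTAC, found in 2.98%. AACCGGTT was in 0.117% of promoters, GGGTGTGG in 2.97% and CCGGAAGT in 3.42%, and none of the 3 was in the windows of the 7 genes matched (ELF3, EHF, GATA3, PPARG, FOXA1, KLF5 and TP63). None of the 6 GATA3 windows held any of the motifs, and 3 of the 6 PPARG windows held the E-box. GRHL2, OVOL1 and ESRP1 are named only. The ELF3 window was poor in CpG, with an observed-to-expected ratio of 0.190, as were both EHF windows at 0.263 and 0.145, against a median of 0.558 over all promoters. The FOXA1 window was CpG-rich at 0.977, and the 6 GATA3 windows ran from 0.245 to 0.869. Counts are per gene and do not tell which start was used.

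ELF3, an ETS factor of luminal urothelium and other epithelia, had the greatest difference of the 10. The gene (ENSG00000163435.16) lies at chr1:202007945-202017183 of hg38, on the plus strand. T24 libraries 1 to 5 held 688, 661, 588, 831 and 583 counts, and T24R2 libraries held 2, 4, 3, 2 and 4. The levels were 72.1 ± 10.2 CPM in T24 and 0.278 ± 0.0962 CPM in T24R2 (SD, n = 5 each). The log2FC was −7.96 (SE 0.17, edgeR adjusted p = 1.37e-33), which 0.661% of tested genes equalled or went below. Summed over libraries, ELF3 was 261-fold lower in T24R2, with a 95% exact interval of 158 to 467 that covers counting error only. Exons of ELF3-AS1, on the opposite strand, overlapped 9.24% of ELF3's exon bases, and the kit is not described as strand-specific, so reads there cannot be assigned to one or the other.

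GATA3, a zinc-finger factor of luminal cells and a diagnostic marker of urothelium, followed the same pattern. It (ENSG00000107485.18, chr10:8045378-8075198, plus strand) had 241, 220, 175, 199 and 193 counts in T24 and 1, 5, 0, 5 and 1 in T24R2. Its level was 22.1 ± 2.0 CPM in T24 and 0.214 ± 0.210 CPM in T24R2 (SD, n = 5 each). The log2FC was −6.57 (SE 0.24, edgeR adjusted p = 3.60e-25), and summed counts were 100.1-fold lower (interval 57.1 to 194). The highest T24R2 library, at 0.445 CPM, was far below every T24 library.

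EHF, another ETS factor of epithelial cells, was the weakest of the 3 in T24. It (ENSG00000135373.13, chr11:34621093-34663288, plus strand) had 63, 67, 44, 88 and 55 counts in T24. In T24R2 the counts were 0, 5, 0, 1 and 0, so replicate 2 held 5 of the 6 counts found. The level was 6.80 ± 1.67 CPM in T24 and 0.105 ± 0.188 CPM in T24R2 (SD, n = 5 each). The log2FC was −5.80 (SE 0.41, edgeR adjusted p = 6.65e-16), and −7.56 without T24R2 replicate 2. Summed counts were 61.7-fold lower (interval 28.0 to 169). At these depths the floor of 3 counts in a library stands for 0.259 to 0.294 CPM in T24R2, so the residual levels of EHF, GATA3 and ELF3 are near what the libraries can resolve.

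FOXA1, the forkhead factor that works beside GATA3 in luminal cells, was lowered but still expressed in T24R2. It (ENSG00000129514.8, chr14:37589552-37596059, minus strand) had 675, 649, 550, 619 and 607 counts in T24 and 165, 179, 141, 137 and 130 in T24R2. Its level was 66.7 ± 2.74 CPM in T24 and 13.8 ± 1.45 CPM in T24R2 (SD, n = 5 each), with a log2FC of −2.27 (SE 0.08, edgeR adjusted p = 2.28e-26). The lowest T24 library, 62.8 CPM, was far above the highest T24R2 library, 15.5 CPM.

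KLF5, a Krüppel-like factor of proliferating epithelial cells, had the most counts of the 10 in both lines. It (ENSG00000102554.14, chr13:73054976-73077541, plus strand) had 1657, 1447, 1413, 1863 and 1549 counts in T24 and 378, 435, 526, 455 and 435 in T24R2. Its level was 171 ± 18.2 CPM in T24 and 41.2 ± 5.99 CPM in T24R2 (SD, n = 5 each), with a log2FC of −2.05 (SE 0.07, edgeR adjusted p = 5.42e-26).

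PPARG, the lipid-sensing nuclear receptor that drives luminal differentiation in bladder, changed least of the 6. It (ENSG00000132170.24, chr3:12287368-12434356, plus strand) had 722, 699, 689, 689 and 726 counts in T24, a range narrower than that of any other of the 6 relative to its mean. In T24R2 it had 285, 259, 315, 334 and 226. The level was 75.9 ± 2.45 CPM in T24 and 26.2 ± 3.83 CPM in T24R2 (SD, n = 5 each), with a log2FC of −1.54 (SE 0.07, edgeR adjusted p = 2.43e-21). At this log2FC or lower stood 8.10% of tested genes, against 5.06% for FOXA1, 5.72% for KLF5, 1.42% for EHF and 1.16% for GATA3.

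**Figure D2:**
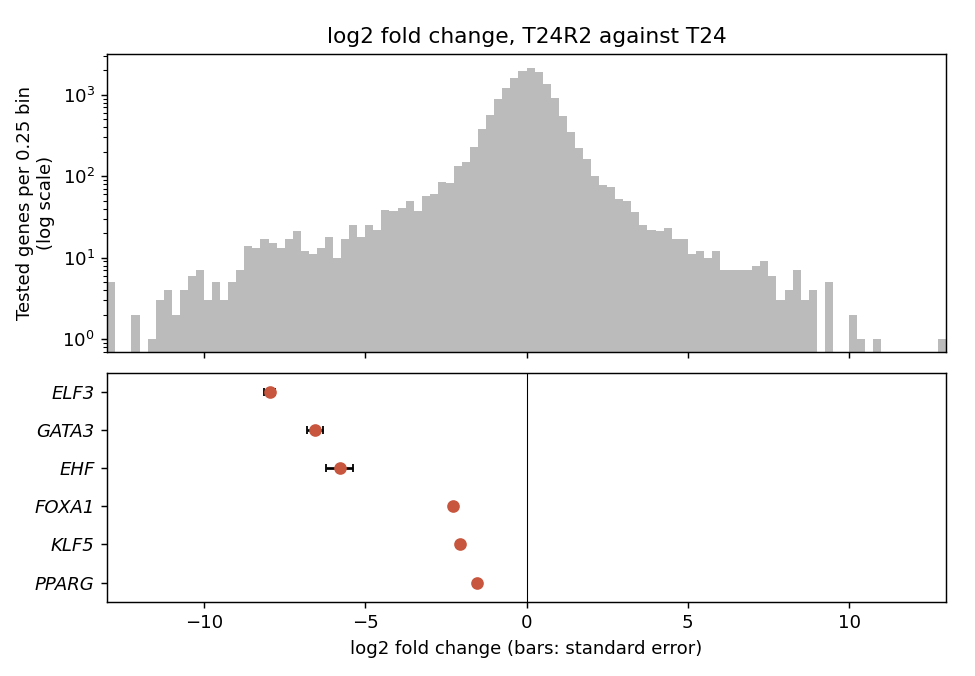
Upper panel, tested genes per 0.25 bin of log2FC (y axis on a log scale; values beyond 13 are put in the end bins); lower panel, log2FC of the 6 tested genes of the list with their standard errors (bars), T24R2 against T24. ELF3, GATA3 and EHF lie between −7.96 and −5.80, and FOXA1, KLF5 and PPARG between −2.27 and −1.54.

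TP63, the transcription factor of basal cells, was barely detected. It (ENSG00000073282.14, chr3:189631389-189897276, plus strand) had 12, 9, 7, 8 and 10 counts in T24 and 9, 0, 2, 5 and 10 in T24R2. The means of 0.987 ± 0.179 and 0.489 ± 0.414 CPM (SD, n = 5 each) gave an exact two-sided permutation p of 0.0635, and the ranges overlapped. It did not pass the filter, and fitted without it the log2FC was −1.02 (SE 0.50, edgeR adjusted p = 0.0903). Summed counts of 46 and 26 were 2.07-fold lower in T24R2, with an interval of 1.25 to 3.48 for counting error only, while the T24R2 libraries spread from 0 to 10 counts. The difference was thus not larger than the spread between libraries.

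The remaining 3 genes had almost no counts. ESRP1 (ENSG00000104413.18, chr8:94641074-94707466) had 0 counts in 4 T24 libraries and 1 in the fifth, and in T24R2 it had 0 counts except for 4 in replicate 3. OVOL1 (ENSG00000172818.10, chr11:65787063-65797214) had 0 counts in all T24 libraries and 1 and 2 counts in T24R2 replicates 2 and 5. GRHL2 (ENSG00000083307.12, chr8:101492439-101669726) had 0 counts in all 10 libraries. A count of 0 allows up to 3 counts in a library, which is 0.311 to 0.342 CPM in T24 and 0.259 to 0.294 CPM in T24R2.

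Compared per length, as per-length values scaled to 1000000 in a library (TPM), the order in T24 was KLF5 at 142.5 ± 16.8, FOXA1 at 46.3 ± 1.49 and ELF3 at 30.8 ± 4.6 (SD, n = 5). GATA3 at 19.9 ± 1.56 and PPARG at 19.5 ± 0.822 TPM came next and did not differ beyond their ranges. EHF at 3.16 ± 0.795 and TP63 at 0.404 ± 0.0704 TPM followed, each apart from its neighbours. In T24R2 the order began with KLF5 at 40.2 ± 5.69, FOXA1 at 11.2 ± 1.16 and PPARG at 7.82 ± 1.1 TPM, each apart from the next. All others were under 0.5 TPM in every T24R2 library with overlapping ranges. PPARG, which ranked with GATA3 in T24, was thus the third of the expressed genes in T24R2. By CPM, which is not divided by length, PPARG and FOXA1 exchanged places with others in both lines.

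Among T24 libraries, replicate 4 was the highest for 3 of the 6 genes, at 124% of the T24 mean for ELF3, 139% for EHF and 117% for KLF5. In the same library GATA3, PPARG and FOXA1 were at 96.9%, 97.6% and 99.9% of their means. PPARG stayed within 96.8% and 104% of its mean across T24, and FOXA1 within 94.3% and 105%. These shares are given without a test, since 5 libraries are too few for a correlation.

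**Figure D3:**
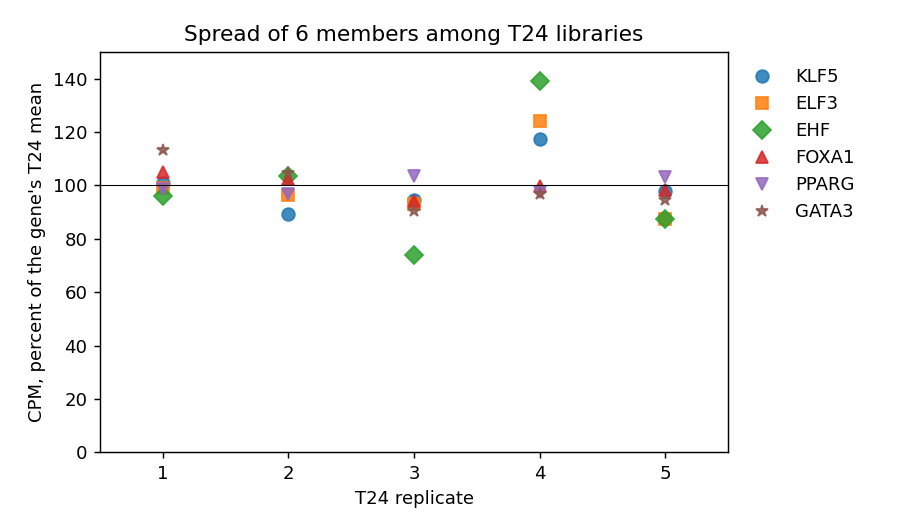
CPM of the 6 tested genes in each T24 library (x axis), as a percent of the gene's T24 mean (y axis); each marker is 1 gene and the line is 100%. In replicate 4, EHF, ELF3 and KLF5 lie at 117% to 139% and the other 3 genes at 96.9% to 99.9%.

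Genes beside the 6 tested factors were then examined. ELF3-AS1, the antisense RNA whose exons reach into ELF3, had 298, 352, 327, 357 and 305 counts in T24 and 352, 415, 393, 405 and 345 in T24R2. Its T24R2 level was 99.6% ± 5.97 of that in T24 (35.3 ± 3.22 CPM in T24, SD, n = 5 each), and it was not called (edgeR adjusted p = 0.959). So ELF3 was called and its antisense partner was not, within the limit on strand given above. GATA3-AS1, which lies within the GATA3 locus with no exon base in common with GATA3, did the opposite, with 20, 33, 21, 13 and 30 counts in T24 and 0 in every T24R2 library (edgeR adjusted p = 1.18e-11). It passed the filter on low counts only through T24, so it had to differ, and its call is a description. TTC6, a tetratricopeptide-repeat gene on the other strand, starts inside FOXA1, 0.212 kb from the FOXA1 start. The genes share 16 exon bases, where the limit on strand also holds. TTC6 fell from 4.53 ± 1.31 to 0.830 ± 0.144 CPM, a log2FC of −2.43 (SE 0.28, edgeR adjusted p = 5.12e-10), beside −2.27 for FOXA1. With 7 to 11 counts in T24R2 libraries, TTC6 also passed the filter only through T24.

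The wider neighbourhoods differed between the genes. These counts stand beside 26.5% called lower and 24.9% called higher over all tested genes. Around FOXA1, 4 of 4 tested genes within 500 kb were called lower and 0 higher. They were TTC6, which overlaps FOXA1, MIPOL1 at a log2FC of −0.88 (SE 0.10), SLC25A21 and SLC25A21-AS1. The starts of SLC25A21 and SLC25A21-AS1 lie close together, 423 and 424 kb from that of FOXA1. Around EHF, 5 of 6 were lower and 0 higher, with a median log2FC of −1.11. These included its nearest tested genes, CAT, the catalase that breaks down hydrogen peroxide, at −1.11 (SE 0.05), and APIP, a methionine-salvage enzyme, at −1.11 (SE 0.09). Around ELF3, 4 of 14 were lower and 2 higher, and the nearest tested gene on the right, GPR37L1, was not called at 0.40 (SE 0.27). Around KLF5, 1 of 4 was lower and 0 higher, and PIBF1 at −0.15 and KLF12 at −0.26 on either side were not called. Around PPARG, 1 of 7 was lower and 2 higher, and TAMM41, its nearest tested gene on the left, was not called at 0.07. Around GATA3, 1 of 4 was lower, the antisense RNA, and 1 higher, and the nearest tested gene on the right, SFTA1P, lay 2709 kb away at 1.18.

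For the genes near 0 in both lines the neighbours were expressed. LPP, higher at 0.71, and P3H2, lower at −0.88, flanked TP63. AP5B1, higher at 1.01, and CFL1, the actin-severing cofilin, lower at −0.55, flanked OVOL1. ZNF706 at 0.46 was not called and RRM2B, a ribonucleotide reductase subunit, was higher at 0.53 beside GRHL2. VIRMA at 0.01 and DPY19L4 at 0.47 beside ESRP1 were not called. All of these are log2FC.

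**Figure D4:**
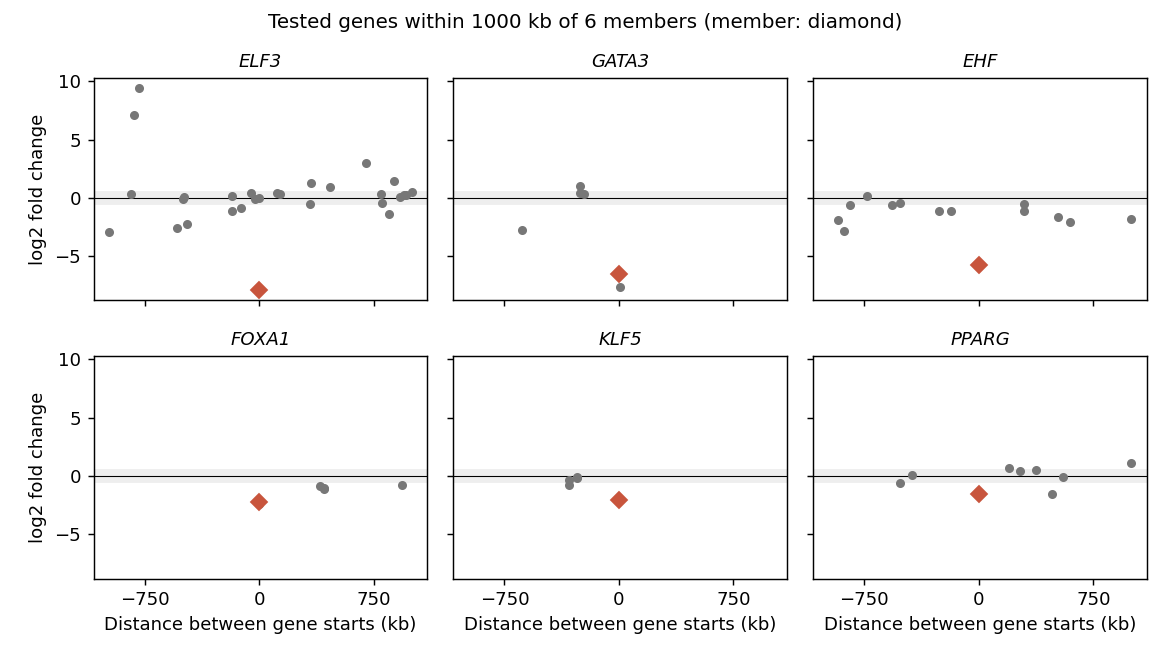
log2FC of tested genes (grey points) against the distance between their start and that of each of 6 genes (diamonds; kb, positive in the direction of transcription); the grey band is a log2FC within 0.5 of 0. ELF3 lies at −7.96 beside ELF3-AS1 near 0, GATA3 lies beside GATA3-AS1, and all neighbours of FOXA1 in its panel lie below 0.

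Relatives of the 10 factors were read next, to see which other members of each family were present. In these and the lists that follow, 11 tested genes had at most 3 counts in each library of T24 or of T24R2 and passed the filter only through the other line, so counts of calls are descriptions. The counts of each list stand beside 26.5% called lower and 24.9% called higher over all tested genes. The list medians with those 11 genes at their bounds were the same to the digits given. Other listed genes, among them SPINT2, ESRP2, ITGB4, ANGPTL4, SNAI1 and CDH5, had at most 10 counts in any T24R2 library. They too passed the filter only through T24 and had to differ, so their log2FC and p-values are descriptions as well. Of 19 relatives in the ETS, GATA, FOXA, grainyhead, OVOL, TP63 and ESRP families, 12 were tested, and 7 were lower, 2 higher and 3 not called (median log2FC −0.71). ESRP2, the paralogue of ESRP1, fell from 9.26 ± 1.04 to 0.544 ± 0.304 CPM (log2FC −4.08, SE 0.25, edgeR adjusted p = 1.29e-17), so that T24R2 had little of either epithelial splicing factor. TP73 fell by 3.76 on the log2 scale and the ETS factor ELF4 by 1.00. Among GATA factors, GATA2 and GATA6 were each lower at −0.71, and GATA4 was higher, at 2.96 CPM against at most 1 count in a T24 library. FOXA2 fell by 1.80 on the log2 scale. In the grainyhead family, GRHL1 had 2.91 ± 0.892 CPM in T24 and 3.39 ± 0.728 CPM in T24R2 and was not called, and GRHL3 was lower, from 1.36 CPM to at most 2 counts in a library. OVOL2 had at most 1 count in any library.

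The relatives of KLF5 and PPARG and the partners of PPARG had few calls. Of 21 genes, 18 were tested, with 3 lower, 3 higher and 12 not called, and a median log2FC of −0.01. Over all tested genes, 51.4% were called. KLF4, a factor of differentiating epithelia, was higher at 1.51 (SE 0.08). RXRA, the retinoid receptor that binds DNA with PPARG, was lower at −0.77 (SE 0.05), and the coactivator NCOA1 was higher at 1.33 (SE 0.09). PPARD, at 76.9 ± 3.04 and 76.6 ± 3.64 CPM, and PPARA, at a log2FC of 0.16, were not called. With library size alone as the scaling, 1 of these genes was lower and 4 were higher.

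Other urothelial and epithelial transcription factors numbered 21, of which 18 were tested, 7 lower, 4 higher and 7 not called (median log2FC −0.33). TFAP2C, an AP-2 factor, was among those higher, from 7.11 ± 0.777 to 39.5 ± 2.45 CPM (log2FC 2.47, SE 0.10, edgeR adjusted p = 4.36e-24). Another AP-2 factor, TFAP2A, was among the 7 lower, at −1.32 (SE 0.09), as was the retinoid receptor RARA, at −1.15 (SE 0.07).

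The labelled cell type was checked against urothelial markers. Uroplakins, the plaque proteins of umbrella cells, were scarce in both lines: UPK1A, UPK1B, UPK3A and UPK3B had at most 11 counts in any library, and UPK2 fell from 9.90 ± 0.960 to 2.74 ± 0.938 CPM. KRT20 had 0 counts in all libraries, while the simple-epithelial keratin KRT7 was at 2242 ± 70.2 CPM in T24 and 1370 ± 64.6 CPM in T24R2. Defining markers of differentiated urothelium other than UPK2 were thus absent or near absent in T24 as in T24R2, although KRT7 was abundant. The list of urothelial and luminal genes held 22 genes, 12 tested, with 7 lower, 1 higher and 4 not called (median log2FC −0.67). KRT18 was lower at −0.69 (SE 0.05) and KRT7 at −0.71 (SE 0.04), and KRT19 went from 267 ± 7.23 CPM to 3 counts or fewer in each T24R2 library, at least 966-fold lower. Folds written as at least are against the floor of 3 counts in every library. The single gene called higher was CYP2J2, an arachidonate epoxygenase, at 2.36 CPM against at most 2 counts in a T24 library.

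Basal and squamous genes were lower nearly throughout the part of the list that was tested. Of 20 genes, 12 were tested, 11 were lower, 0 higher and 1, EGFR, was not called at a log2FC of 0.28 (median −1.98). Over all tested genes, 26.5% were called lower and 24.9% higher. The integrins that anchor basal cells to their basement membrane were among those lower, ITGA6 at −2.07 and ITGB4 at −6.91. KRT17 was at least 165-fold lower. Both KRT17 and ITGB4 passed the filter only through T24 and had to differ. KRT5, KRT14 and the KRT6 genes, which define basal cells, had at most 6 counts in any library of either line.

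Genes reported as targets of GRHL2 and OVOL factors in epithelial cells were examined beside the near absence of those factors in both lines. Of 22 genes, 12 were tested, with 8 lower, 1 higher and 3 not called (median log2FC −1.04). CDH1, which encodes E-cadherin, had at most 2 counts in any library. SPINT1 and SPINT2, inhibitors of epithelial membrane proteases, were expressed in T24 at 95.2 ± 1.72 and 163 ± 12.2 CPM. In T24R2, SPINT1 had 0 counts in every library, at least 345-fold lower, and SPINT2 had a log2FC of −8.00 (SE 0.11). The tight-junction gene CLDN4 was lower at −3.89 (SE 0.19). With 6 to 21 counts in T24R2 libraries, CLDN4 passed the filter only through T24, so its log2FC is a description. AP1M2, a clathrin adaptor subunit of epithelia, was the one called higher, with 0 counts in every T24 library and 7.64 ± 1.53 CPM in T24R2.

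Reported PPARG targets were lower in 9 of 10 tested, of 18 listed, with 0 higher and PLIN1 not called at 0.32 (median log2FC −1.47). FABP4, a fatty acid carrier, was at least 99.1-fold lower from 27.4 ± 1.86 CPM in T24. The lipid-droplet protein PLIN2 fell by 5.13 on the log2 scale and ANGPTL4, an inhibitor of lipoprotein lipase, by 6.70, against 1.54 for PPARG itself. PLIN2, with 7 to 13 counts in T24R2 libraries, passed the filter only through T24, as did ANGPTL4. Their falls are thus descriptions. The count stands beside the 26.5% called lower over all genes. Many of these genes also answer to other regulators, and PPARG's part in them was not tested.

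EMT factors and mesenchymal genes, 12 in all and 9 tested, held 5 higher, 2 lower and 2 not called (median log2FC 0.65). VIM, encoding the intermediate filament vimentin, rose from 482 ± 14.3 to 3963 ± 198 CPM (log2FC 3.04, SE 0.04, edgeR adjusted p = 2.38e-39), and FN1, encoding fibronectin, was higher at 1.02 (SE 0.05). The E-box binding repressors did not move as a group: ZEB1 was not called at 0.16, ZEB2 was higher at 0.84, SNAI2 higher at 0.65 and SNAI1 lower at −4.31. FOXC2 was lower at −2.78. Exons of VIM are overlapped from the other strand over 24.6% of their bases, and without overlapped genes 1 of the list was higher and 1 lower. With an absolute log2FC over 1 as the call, 2 were higher.

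**Figure D5:**
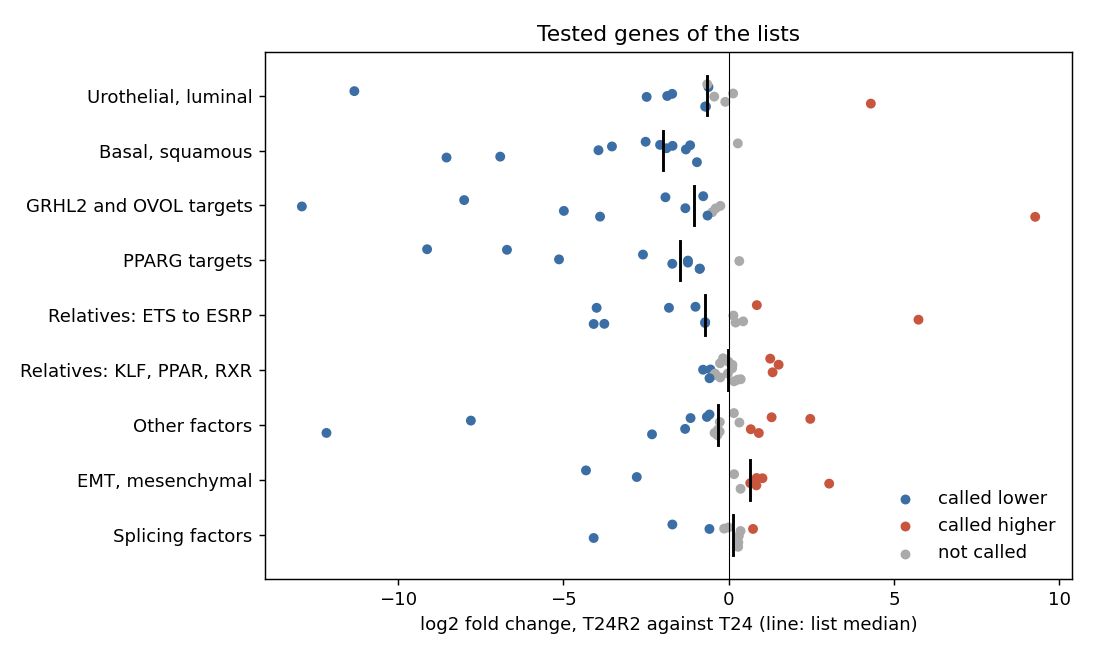
log2FC of each tested gene in 9 lists (x axis), coloured by call, with a vertical line at the list median. The basal and squamous list has its median at −1.98, the reported PPARG targets at −1.47, and the EMT and mesenchymal list at 0.65.

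Splicing factors beside ESRP1 numbered 10, all tested, with 3 lower, 1 higher and 6 not called (median log2FC 0.14). RBPMS was lower at −1.70 (SE 0.09) and SRSF1 higher at 0.74 (SE 0.05), and ESRP2, given above, was the other named gene.

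Markers of other cell types were read last. Of 12 immune, endothelial, muscle and neural markers, 4 were tested, with 2 lower and 1 higher, and their summed level ran from 231 to 283 CPM in T24 and from 11.1 to 14.2 CPM in T24R2. Nearly all of the T24 sum was CDH5, encoding VE-cadherin, at 239 ± 22.3 CPM against 0.559 ± 0.310 CPM in T24R2. PECAM1 was lower at −2.17 and the neural vesicle gene SYP higher at 2.54. PECAM1, with 8 to 18 counts in T24R2 libraries, passed the filter only through T24. SYP, with 6 to 10 counts in T24 libraries, passed only through T24R2, so both calls are descriptions. VWF, another endothelial marker, had at most 8 counts in any library, TNNT2 had 0 in all, and CD3E and PTPRC had at most 3 and 10. The part of these markers in the results for the 10 factors was not tested.

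The pattern of KLF5, the called gene of the list with the highest TPM, was most like that of ADK, which encodes adenosine kinase, PLA2R1 and TNS3, at Pearson r of 0.998, 0.998 and 0.997 of log2 CPM over 10 libraries. All 3 were lower in T24R2, with log2FC of −1.07, −1.83 and −0.96. An r over 0.95 was found for 2616 genes, and the points share the split between the 2 lines.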

How the data were processed

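RNA was extracted with a Zymo kit, and libraries were made with the NEBNext Ultra II RNA kit. The authors aligned reads to hg38 with STAR 2.7.0 and the GENCODE 39 annotation, filtered out multi-mapped and duplicate reads with SAMtools 1.10, and assigned the rest to genes with featureCounts 2.0.1 (strand option 1, per the file headers). The deposited values are raw counts per gene and library, neither normalized nor pooled, with 9257843 to 10840954 counts per library. In R 4.3.3, edgeR 4.0.16 (filterByExpr, TMM, glmQLFit, glmQLFTest) compared T24R2 with T24 over 16181 genes, with no covariate. CPM were taken on TMM-scaled library sizes and TPM with the length column. The methods used DESeq2, which served here as an alternative (1.42.0), as did limma 3.58.1. Each SE was derived from the test's F. Intervals and floors cover counting error only. In counts simulated for this comparison, 189 of 200 changed genes and 2 unchanged genes were called among 16181. Only those 200 genes were changed, in equal numbers up and down, while 51.4% of tested genes were called in the real data. The simulation therefore does not give the error rate of the real comparison. Replicate numbers did not pair the libraries, with correlations of same-numbered deviations from −0.0210 to 0.0155.

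The members and gene lists were chosen with earlier results of these data known. The text names all members, up to 3 called genes of smallest adjusted p per list, list genes at the floor in a line and over 100 counts in the other, the tested genes that flank each member, and the 3 genes most like the called member of highest TPM. Other genes named were chosen after their values were seen. The planned subtraction of antisense counts was not used, since ELF3-AS1 exceeded ELF3 in T24R2. Promoter sequences are RefSeq's. Some genes that the rule names are not reported here.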

Additional observations from a re-analysis of the deposited data

Results flagged for a closer look

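In 3 of 17 groups of 5 libraries examined, 1 library stood apart from the other 4 by Dixon's criterion, where chance alone would give about 0.85. All 3 rest on single-digit counts, for which that expectation does not hold, so no excess is read from the comparison. Where only 1 library of a group has any count, as for ESRP1, it stands apart by construction. EHF reached 0.433 CPM (5 counts) in T24R2 replicate 2, against 0 or 1 count in the other T24R2 libraries, and the log2FC of EHF was −7.56 without that library. ESRP1 reached 0.384 CPM (4 counts) in T24R2 replicate 3 and 0.108 CPM (1 count) in T24 replicate 5, with 0 counts in the other libraries of each line.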

How the results depend on the processing

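All 6 members called lower were called lower under every alternative in which they were tested, and 0 were called higher. EHF had too few counts for the set with a mean of at least 100, and ELF3 and FOXA1 are not in the set without opposite-strand overlap. Across these alternatives the log2FC ran from −8.10 to −7.19 for ELF3, −7.56 to −4.64 for EHF, −6.98 to −5.79 for GATA3, −2.31 to −2.10 for FOXA1, −2.13 to −1.89 for KLF5 and −1.59 to −1.37 for PPARG, with no change of sign. With the replicate block, 8240 genes were called, 4261 lower and 3979 higher, 6 members were lower and 0 higher, and no member's call changed. Counts over all genes moved by more than 1.5 times in 4 settings. With an absolute log2FC over 1, 4211 genes were called, 2293 lower and 1918 higher. With a mean of at least 100 counts, 4991 were called, 2641 lower and 2350 higher, a smaller set of genes by construction. Without genes overlapped from the opposite strand, 4302 were called, 2175 lower and 2127 higher, again from fewer genes. With no fold change minimum, 6128 were called higher. With an absolute log2FC over 1, genes named here with smaller changes, such as KRT7, KRT18, RXRA, SRSF1, GATA2, GATA6, ZEB2, SNAI2, MIPOL1, LPP, P3H2, CFL1 and RRM2B, were no longer called. Of 440 list counts under alternatives, 398 stayed within 1.5 times and 42 moved. ESRP1, OVOL1 and GRHL2 had too few counts for a difference to be resolved, and for TP63 the spread between T24R2 libraries overlapped T24.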
